A study of Mus musculus with 6 samples.

Results

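The genes described here are 46 type I interferon-stimulated genes of the mouse, taken by symbol from a deposited table of 55573 genes and measured in bone marrow LSK cells. All 46 listed symbols were found in the table, each on its own row. LSK cells carry Sca-1 and c-Kit and lack lineage markers, which enriches them for blood stem cells and early progenitors. They were sorted from C57BL/6J mice at 3 months of age after magnetic enrichment of c-Kit-positive cells, and RNA was sequenced in bulk. The 3 MUT libraries came from Etv6 R355X/+ mice, which carry 1 R355X allele, and the 3 WT libraries from Etv6+/+ mice. In the genotype label the heterozygote is written Etv6+/-. The series title poses the study as one of how ETV6, a repressor of the ETS family of transcription factors, restrains inflammatory response genes in blood stem and progenitor cells.

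Type I interferons, the alpha and beta families, bind a shared receptor of the chains Ifnar1 and Ifnar2 and signal through the kinases Jak1 and Tyk2. The signal ends at a complex of transcription factors, Irf9 among them, that binds the interferon-stimulated response element, a repeated GAAA-type sequence in the promoters of target genes. The induced genes encode antiviral effectors, RNA and DNA sensors, ubiquitin-like modifiers and the regulator Irf7, and hematopoietic stem cells are known to hold part of this set at a basal level without infection.

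Depth was 92.2, 51.1 and 45.2 M expected counts in MUT libraries 1, 2 and 3 and 60.8, 47.9 and 48.4 M in WT libraries 1, 2 and 3. Etv6 itself measured 305, 341 and 386 CPM in MUT, against 454, 419 and 400.1 CPM in WT, with a log2 fold change of -0.30 (SE 0.086; edgeR's quasi-likelihood test, unadjusted p = 0.00506, adjusted p = 0.245). All 10 stem and progenitor markers of the LSK gate, Kit and Ly6a (Sca-1) among them, were detected in every library, and their summed level ran from 1663 to 1880 CPM in MUT and from 1641 to 2133 CPM in WT. Markers of other cell types were detected as well, and none of those listed was at 0 in every library. The summed level of 8 plasmacytoid dendritic cell markers, the cells known for producing type I interferon, was 33.3 to 38.9 CPM in MUT and 39.6 to 55.9 CPM in WT. That difference lay mainly in Ccr9, which was lower in every MUT library (9.98 to 17.0 CPM, against 18.8 to 29.9 CPM in WT), and in Siglech, whose genotypes overlapped, while Ly6d and Pacsin1 were higher in every MUT library. Of 12 markers of conventional dendritic cells and macrophages, 5 were higher in every MUT library (Adgre1, Cd68, Itgax, C1qa and C1qc) and 7 overlapped, with sums of 117 to 165 CPM in MUT and 102 to 125 CPM in WT. Of 8 B cell markers, 5 were higher in every MUT library (Cd79a, Cd79b, Pax5, Ebf1 and Vpreb1), and Igkc, which makes up most of the sum, overlapped. The 7 erythroid markers summed to 114 to 221 CPM in MUT and 53.6 to 86.6 CPM in WT, with Hbb-bs and Hbb-bt higher in every MUT library and the other 5 overlapping. Of 5 mast cell and basophil markers, 4 were higher in every MUT library (Cpa3, Fcer1a, Cma1 and Prss34). The 5 summed to 35.3 to 52.7 CPM in MUT and 27.8 to 29.8 CPM in WT. Cma1 was barely detected, at 0.194 to 0.312 CPM in MUT and 0 to 0.143 CPM in WT. Beside these counts, 8.45% of the 20646 genes tested were higher in every MUT library and 7.84% were lower. In bulk RNA, fewer cells of a type and less RNA per cell cannot be told apart, and the part of these other cells in the values below was not tested.

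None of the 46 interferon-stimulated genes passed the test between MUT and WT. CPM below is the count scaled to the library size, corrected by the trimmed mean of M-values (TMM), and a gene counts as called at an adjusted p under 0.05 in edgeR's quasi-likelihood test. The edgeR test called 0 of the 46, against 0.266% of the 20646 genes tested, and the smallest adjusted p among the members was 0.215. DESeq2 called 1 member, Oas1g (DESeq2 adjusted p = 0.0298), against 1.59% of all genes, and limma-voom called 0, against 0.199%. At an unadjusted edgeR p under 0.05 there were 9 members, or 19.6%, against 10.6% of all genes. Of these 9, 7 were higher in MUT (5.83% of all genes) and 2 lower (4.8%). Leaving out WT library 1 left 4 members at an unadjusted p under 0.05. The share of all genes at that level is not at hand for this setting, in which the genes called by edgeR over the transcriptome went from 55 to 23. The 3 MUT values lay outside the range of the 3 WT values for 7 members, or 15.2%, against 16.3% of all genes. These were Ifit1bl1, Oas1g, Ifi27l2a, Phf11b, Epsti1 and Bst2 on the higher side (8.45% of all genes) and Pml on the lower side (7.84%), so the share of non-overlapping members lay near that of the transcriptome. That count was 12 (26.1%) without MUT library 1 and 15 (32.6%) without MUT library 2, against 24.9% and 25.2% of all genes. It was 10 (21.7%) without MUT library 3, against 29.7%, and 13 (28.3%) without WT library 3, against 28.7%. Without WT library 1 or WT library 2 it was 9 (19.6%), against 26.0% and 23.7%. Whether replicates are separate animals is not stated in the labels, so a p-value here reflects sample-to-sample spread that may be purely technical.

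The fold changes were small for most of the genes and scattered on both sides of 0. Their log2 fold changes ran from -0.35 for Ifit1 to 0.65 for Ifit1bl1, with 27 above 0 and 19 below. The median was 0.021, against 0.0019 over all genes tested, and became -0.016 when libraries were scaled by their size alone. The median standard error was 0.11 on the log2 scale. The 95% interval of the fold change lay within 1.5-fold either way for 33 of the 46 genes and within 1.25-fold for 14. The 13 genes whose interval reached past 1.5-fold were Ifit1, Ifit3, Ifit3b, Ifit1bl1, Oas1g, Slfn1, Slfn5, Isg15, Mx1, Ifi27l2a, Ifi204, Phf11b and Rsad2. All 46 genes passed the filter on low counts, with 18 to 33930 rounded counts per gene and library.

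**Figure D1:**
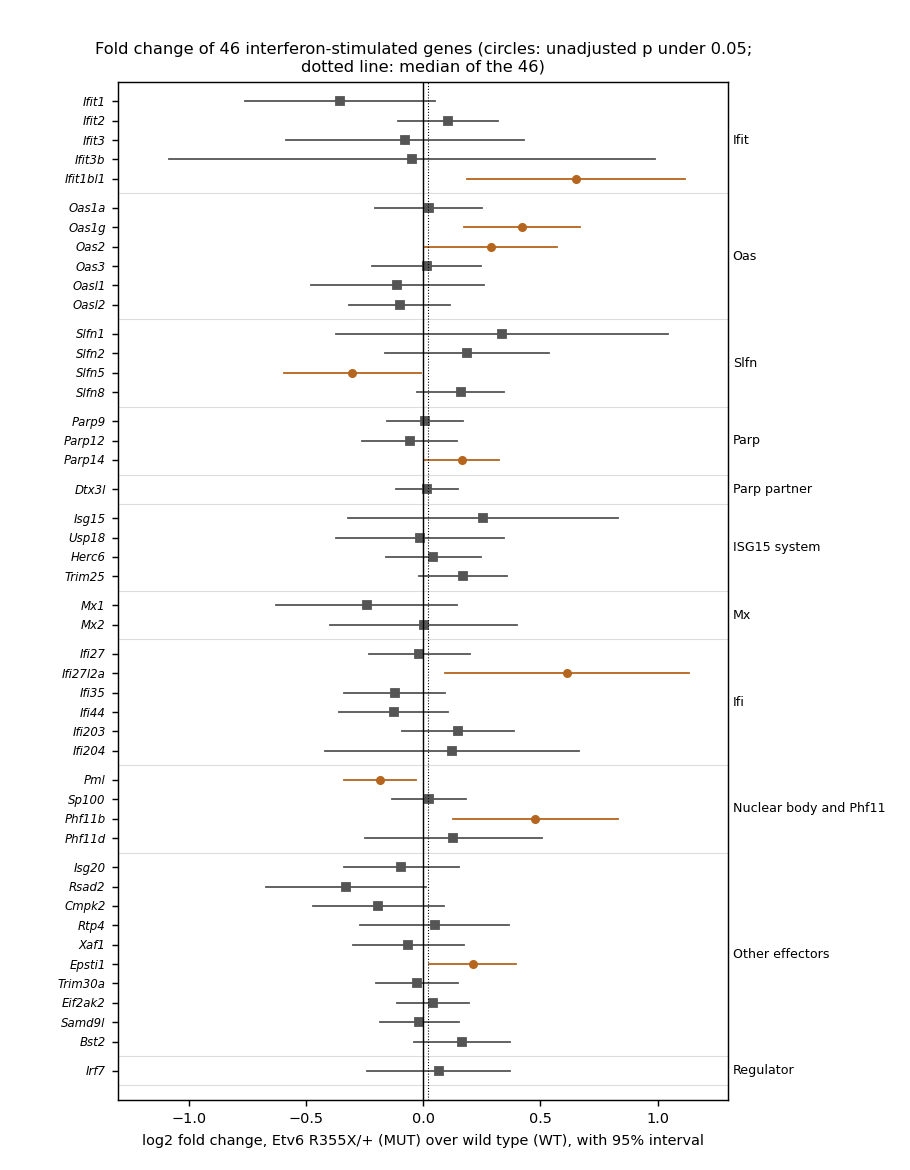
The horizontal axis is the log2 fold change of Etv6 R355X/+ (MUT) over wild type (WT) for each of the 46 genes, ordered by role, with its 95% interval from the edgeR fit. Circles mark the 9 genes with an unadjusted p under 0.05, and the dotted line is the median of 0.021: most intervals cross 0, and Ifit3b has the widest.

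The basal level of these genes covered more than 2 orders of magnitude in both genotypes. Levels of different genes are compared here as CPM per kilobase of exon. The DNA-sensor family gene Ifi203 was the highest, with 54.1 ± 5.09 in MUT and 48.9 ± 7.50 in WT (CPM per kilobase, SD, n = 3 each). Ifi27, a small membrane protein of mitochondria and the nuclear envelope, followed with 40.3 ± 6.03 in MUT and 40.8 ± 2.12 in WT CPM per kilobase. The ubiquitin ligase gene Trim25 had 30.4 ± 3.58 in MUT and 27.1 ± 1.38 in WT CPM per kilobase, the tetherin gene Bst2 28.7 ± 1.25 in MUT and 25.6 ± 2.13 in WT, and the Trim family gene Trim30a 21.9 ± 1.58 in MUT and 22.3 ± 1.86 in WT. Neighbours in that order, such as Trim25 and Bst2, overlapped within their SD, while Ifi203 stood above Bst2 in both genotypes. At the bottom, Ifit3b had 0.337 ± 0.177 in MUT and 0.343 ± 0.147 in WT CPM per kilobase, and Phf11d, Ifit1bl1, Slfn1, Ifi204 and Mx2 were the next lowest. The hallmark induced genes Isg15, Rsad2, Ifit1, Usp18 and Irf7 lay in the lower part of the order, with 2.69 ± 0.286 in MUT and 2.57 ± 0.279 in WT CPM per kilobase for Irf7 and 4.89 ± 1.99 in MUT and 4.13 ± 0.288 in WT for Isg15. The order depends on the length used: divided by the longest transcript instead of all exons, Ifi203 had 96.7 and Usp18 5.504 CPM per kilobase in MUT, against 87.3 and 5.57 in WT, and Sp100 took the place of Trim30a among the 5 highest.

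**Figure D2:**
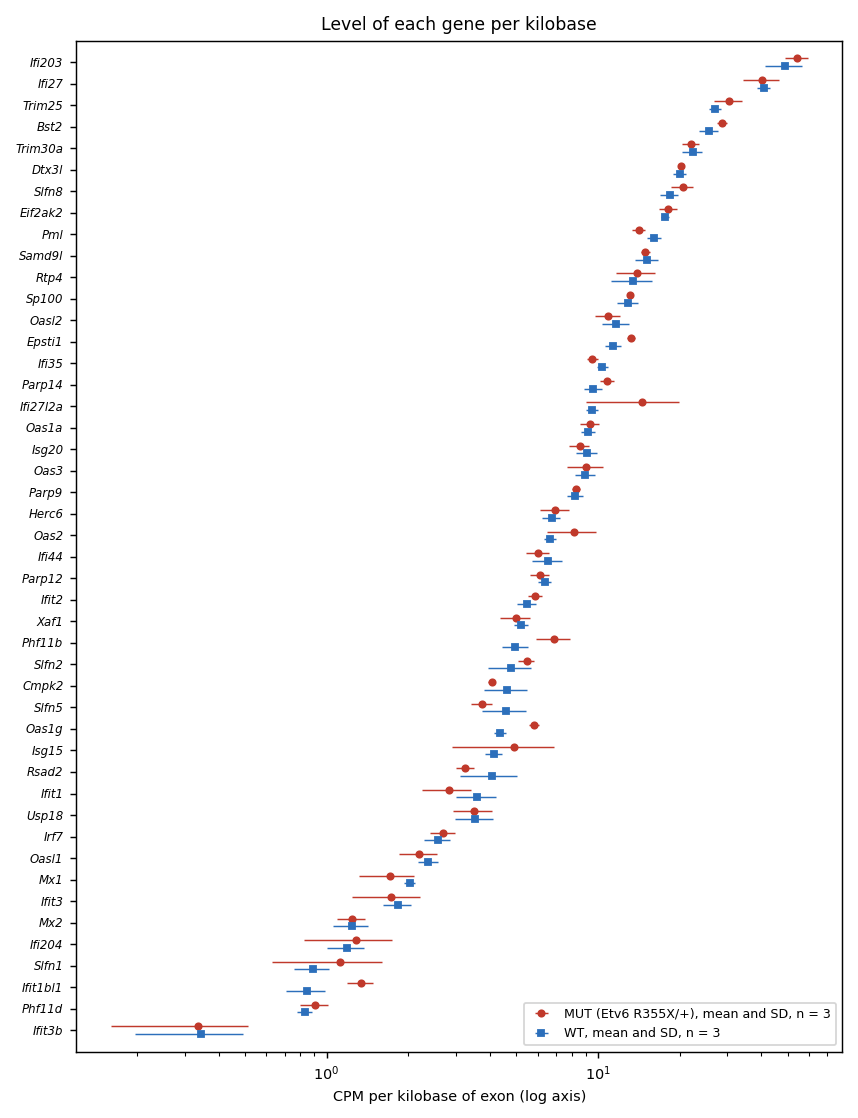
The level of each of the 46 genes as CPM per kilobase of exon (log axis), with the mean and SD of the 3 MUT libraries (red circles) above that of the 3 WT libraries (blue squares). Genes are ordered by their WT level, from Ifi203 at the top to Ifit3b at the bottom, and the genotypes lie side by side for nearly all of them.

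The Ifit genes encode tetratricopeptide proteins that bind foreign RNA and block its translation, and their cluster lies on chromosome 19. Among the 5 measured, the highest and the lowest fold change of all 46 members stood side by side. Ifit1, which binds RNA without a fully methylated cap (chr19:34640871-34650009, plus strand, mm10), measured 5.98, 7.42 and 9.07 CPM in MUT, against 11.01, 9.79 and 7.82 CPM in WT. Its log2 fold change was -0.35 (SE 0.18; edgeR, unadjusted p = 0.0808, adjusted p = 0.543), and the genotypes overlapped, with MUT library 3 above WT library 3. Ifit1bl1, an Ifit1-like gene on the opposite strand (chr19:34592891-34601956, minus strand), measured 3.37, 2.705 and 2.96 CPM in MUT, against 2.19, 1.58 and 1.99 CPM in WT. Every MUT value of Ifit1bl1 lay above every WT value, and its log2 fold change was 0.65 (SE 0.21; edgeR, unadjusted p = 0.0103, adjusted p = 0.306), a fold of 1.57 with a 95% interval of 1.14 to 2.17. The ratio of Ifit1bl1 to Ifit1 CPM within a library was 0.564, 0.364 and 0.327 in MUT, against 0.199, 0.161 and 0.255 in WT, higher in every MUT library. The pair holds the highest and the lowest fold change of the list, so that ratio follows from the choice of genes and is a description. RSEM can share reads between similar transcripts, but the counts of both genes were whole numbers before rounding. Of the 50-base words, 6.45% for Ifit1bl1 and 7.13% for Ifit1 occur in another gene, almost all of them in Ifit1bl2.

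Their promoters are shown because the 2 genes lay at opposite ends of the list. Each window, from RefSeq on GRCm38.p6 (the mm10 assembly), runs from 250 bases before to 50 bases after the annotated start, 5′ to 3′ on the gene's own strand. Capitals mark the core of the response element, which was searched as GAAA, any 2 bases and GAAA on both strands, and neighbouring cores may overlap. Ifit1 (chr19:34640639-34640938, plus strand) holds 2 cores, the nearer with its first base 85 bases before the start, and the more upstream of the 2 windows of Ifit1bl1 (chr19:34601919-34602218, minus strand) holds 1 at 104 bases. The other window of Ifit1bl1 (chr19:34599378-34599677, minus strand), which is not shown, and that of Ifit1 are identical at 46.2% of 331 aligned columns. The identity of the 2 windows shown was not computed.
Ifit1: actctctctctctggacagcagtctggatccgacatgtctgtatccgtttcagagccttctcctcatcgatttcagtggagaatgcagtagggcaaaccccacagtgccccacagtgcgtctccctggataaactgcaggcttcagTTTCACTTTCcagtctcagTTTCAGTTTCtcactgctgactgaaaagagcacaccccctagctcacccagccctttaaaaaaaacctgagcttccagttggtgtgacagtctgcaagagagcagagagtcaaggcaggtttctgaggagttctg
Ifit1bl1: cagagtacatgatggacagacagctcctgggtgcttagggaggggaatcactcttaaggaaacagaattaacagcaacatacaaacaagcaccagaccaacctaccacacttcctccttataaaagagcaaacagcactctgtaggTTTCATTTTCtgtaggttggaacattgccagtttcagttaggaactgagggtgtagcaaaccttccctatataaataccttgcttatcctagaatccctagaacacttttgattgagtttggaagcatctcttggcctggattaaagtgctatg

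The other 3 Ifit genes overlapped between the genotypes. Ifit2, a cytoskeleton-associated member linked to cell death, measured 24.5, 22.1 and 22.6 CPM in MUT, against 23.5, 20.4 and 20.4 CPM in WT (log2 fold change 0.11, SE 0.10). Ifit3, a partner of Ifit1 and Ifit2 in a common complex, measured 3.85, 3.03 and 2.16 CPM in MUT, against 3.59, 2.85 and 3.16 CPM in WT (log2 fold change -0.078, SE 0.23). Ifit3b, its near-identical copy, measured 0.629, 0.345 and 1.05 CPM in MUT, against 0.995, 0.655 and 0.410 CPM in WT (log2 fold change -0.047, SE 0.47). Ifit3 and Ifit3b had opposite extremes: MUT library 3 was lowest for Ifit3 and highest for Ifit3b. The pair shares much sequence. Of the 50-base words, 51.2% for Ifit3 and 45% for Ifit3b also occur in another gene, nearly all in each other. Before rounding, both genes had whole counts in every library, with no sign of reads divided between them. Whether reads from the shared words are missing from both levels was not tested. The sum of the pair was 4.48, 3.38 and 3.21 CPM in MUT, against 4.58, 3.501 and 3.57 CPM in WT, and overlapped too. Ifit2 is set apart in its start region: its first RefSeq window (chr19:34550444-34550743, plus strand) has no response element core but holds the ETS-type sequence CCGGAAGT, in capitals below, the single one found among the windows of the members.
Ifit2: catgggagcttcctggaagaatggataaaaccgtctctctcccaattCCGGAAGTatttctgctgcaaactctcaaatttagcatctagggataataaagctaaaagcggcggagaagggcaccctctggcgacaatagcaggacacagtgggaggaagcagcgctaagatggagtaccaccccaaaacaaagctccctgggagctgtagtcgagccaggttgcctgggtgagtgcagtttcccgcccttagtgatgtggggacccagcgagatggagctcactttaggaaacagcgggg

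The Oas genes encode synthetases that are activated by double-stranded RNA and make the oligoadenylates that switch on RNase L. The 6 members on chromosome 5 gave 1 gene, Oas1g, with separated genotypes. Oas1g (chr5:120876142-120887613, minus strand, mm10) measured 14.2, 13.04 and 13.7 CPM in MUT, against 10.8, 10.1 and 9.77 CPM in WT, all 3 MUT values above all 3 WT values. Its log2 fold change was 0.42 (SE 0.11; edgeR, unadjusted p = 0.00333, adjusted p = 0.215), a fold of 1.34 with a 95% interval of 1.13 to 1.59. The adjusted p of Oas1g ran from 0.0298 with DESeq2, which called it, to 0.565 without WT library 2 (edgeR), and the log2 fold change stayed between 0.36 and 0.46 in all the alternatives run. Oas1a (chr5:120896256-120907521, minus strand), its nearest copy, measured 19.2, 16.7 and 16.9 CPM in MUT, against 16.1, 17.9 and 17.9 CPM in WT, with a log2 fold change of 0.024 (SE 0.10) and overlapping genotypes, and of -0.014 with library size alone. The ratio of Oas1g to Oas1a was 0.740, 0.781 and 0.810 in MUT, against 0.667, 0.560 and 0.546 in WT, higher in each MUT library. The 2 genes share much sequence. Of the 50-base words, 45.7% for Oas1g and 57.6% for Oas1a occur in another gene, nearly all in each other. Both had whole counts in every library before rounding, with no sign of reads divided between them. Whether reads from the shared words are missing from both levels was not tested. Their summed level was 33.4, 29.8 and 30.6 CPM in MUT, against 26.9, 28.0 and 27.6 CPM in WT, again with every MUT library above every WT library.

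The promoters of this pair are shown because the fold changes of these close copies lay apart. Oas1g (chr5:120887564-120887863, minus strand) and Oas1a (chr5:120907476-120907775, minus strand) are identical at 261 of 306 aligned columns, or 85.3%. Both hold a pair of overlapping cores, in capitals, whose nearer core begins 12 bases before the start in Oas1g and 14 in Oas1a.
Oas1g: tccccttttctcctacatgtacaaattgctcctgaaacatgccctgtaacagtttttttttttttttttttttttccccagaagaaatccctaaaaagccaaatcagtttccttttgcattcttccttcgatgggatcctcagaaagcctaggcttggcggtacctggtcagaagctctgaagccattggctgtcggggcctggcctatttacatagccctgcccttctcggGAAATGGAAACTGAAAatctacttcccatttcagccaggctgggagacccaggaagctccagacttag
Oas1a: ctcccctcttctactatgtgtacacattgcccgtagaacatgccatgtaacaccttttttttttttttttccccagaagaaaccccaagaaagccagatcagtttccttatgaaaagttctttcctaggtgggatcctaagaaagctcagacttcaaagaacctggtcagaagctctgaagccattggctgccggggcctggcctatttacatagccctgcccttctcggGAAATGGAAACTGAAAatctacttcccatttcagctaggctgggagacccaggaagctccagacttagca

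Of the larger synthetases, Oas2 measured 34.1, 30.1 and 44.4 CPM in MUT, against 30.5, 30.5 and 27.9 CPM in WT. Its log2 fold change was 0.29 (SE 0.13; edgeR, unadjusted p = 0.0439, adjusted p = 0.456), and MUT library 3 was the highest of the 6 while MUT library 2 lay within the WT range. Without MUT library 3 the log2 fold change of Oas2 was 0.12. Oas3, the longest of the family, measured 59.3, 57.8 and 75.3 CPM in MUT, against 68.7, 63.7 and 57.9 CPM in WT (log2 fold change 0.014, SE 0.10), with MUT library 3 again highest, and its log2 fold change was -0.021 with library size alone and -0.0081 with limma-voom. The related Oasl1, known in the mouse to restrain translation of Irf7, measured 6.47, 4.70 and 5.99 CPM in MUT, against 6.36, 6.61 and 5.58 CPM in WT (log2 fold change -0.11, SE 0.17). Oasl2 measured 69.4, 62.3 and 76.7 CPM in MUT, against 81.5, 76.8 and 65.1 CPM in WT (log2 fold change -0.10, SE 0.10). For both Oasl genes MUT library 2 was the lowest of the 6 libraries and the genotypes overlapped.

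The Slfn (schlafen) genes, named for growth arrest of T cells, encode regulators of growth and quiescence, some of which bind tRNA. On chromosome 11, the 4 members gave 3 log2 fold changes above 0 and 1 below, and none had separated genotypes. Slfn5 (chr11:82951349-82964840, plus strand, mm10) measured 24.0, 21.3 and 25.4 CPM in MUT, against 33.2, 30.8 and 23.0 CPM in WT. Its log2 fold change was -0.30 (SE 0.13; edgeR, unadjusted p = 0.0444, adjusted p = 0.456), with WT libraries 1 and 2 above all MUT libraries and WT library 3 within them. Slfn8 (chr11:83002158-83020810, minus strand) measured 90.9, 75.4 and 85.6 CPM in MUT, against 78.2, 78.8 and 68.4 CPM in WT, with a log2 fold change of 0.16 (SE 0.084; edgeR, unadjusted p = 0.0819, adjusted p = 0.544). MUT libraries 1 and 3 were the highest for Slfn8, and MUT library 2 lay within the WT range. The ratio of Slfn8 to Slfn5 was 3.79, 3.54 and 3.37 in MUT, against 2.35, 2.56 and 2.97 in WT, higher in every MUT library although each gene alone overlapped. This pair too was picked with its fold changes known. Slfn5 shares 11.1% of its 50-base words with other genes, the most with its antisense neighbour Slfn5os, and Slfn8 14.6%, the most with Slfn10-ps. Unstranded counts cannot separate Slfn5 from an antisense gene.

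The start regions of Slfn5 and Slfn8 each hold 1 core and are shown because the genes differed in the sign of their fold change. Slfn5 (chr11:82951852-82952151, plus strand) has its core 155 bases before the start, and Slfn8 (chr11:83020761-83021060, minus strand) 48 bases before the start of the more upstream of its 2 windows.
Slfn5: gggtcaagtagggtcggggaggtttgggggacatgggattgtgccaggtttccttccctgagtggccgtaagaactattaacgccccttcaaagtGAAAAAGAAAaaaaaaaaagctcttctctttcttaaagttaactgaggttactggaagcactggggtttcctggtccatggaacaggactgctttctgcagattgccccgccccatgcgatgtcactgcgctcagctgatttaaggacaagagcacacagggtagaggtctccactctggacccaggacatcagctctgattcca
Slfn8: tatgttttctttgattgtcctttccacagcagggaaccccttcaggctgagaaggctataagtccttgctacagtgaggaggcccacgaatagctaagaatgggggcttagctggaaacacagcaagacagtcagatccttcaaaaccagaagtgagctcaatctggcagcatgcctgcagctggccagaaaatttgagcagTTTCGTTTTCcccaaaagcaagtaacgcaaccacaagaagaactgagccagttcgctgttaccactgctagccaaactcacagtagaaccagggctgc

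Slfn1 measured 2.96, 1.15 and 2.14 CPM in MUT, against 1.94, 1.52 and 1.52 CPM in WT (log2 fold change 0.34, SE 0.32). The value of Slfn1 rested on MUT library 1, and without it the log2 fold change was -0.020. Slfn2, which in mice keeps T cells and other immune cells quiescent, measured 8.42, 9.17 and 9.65 CPM in MUT, against 6.31, 8.80 and 8.78 CPM in WT (log2 fold change 0.19, SE 0.16), with WT library 1 as the lowest of the 6. Of 7 such within-library ratios computed over the list, the 3 given here lay apart between the genotypes and the other 4 overlapped (Ifit3 to Ifit3b, Slfn1 to Slfn2, Phf11b to Phf11d and Ifi204 to Ifi203).

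**Figure D3:**
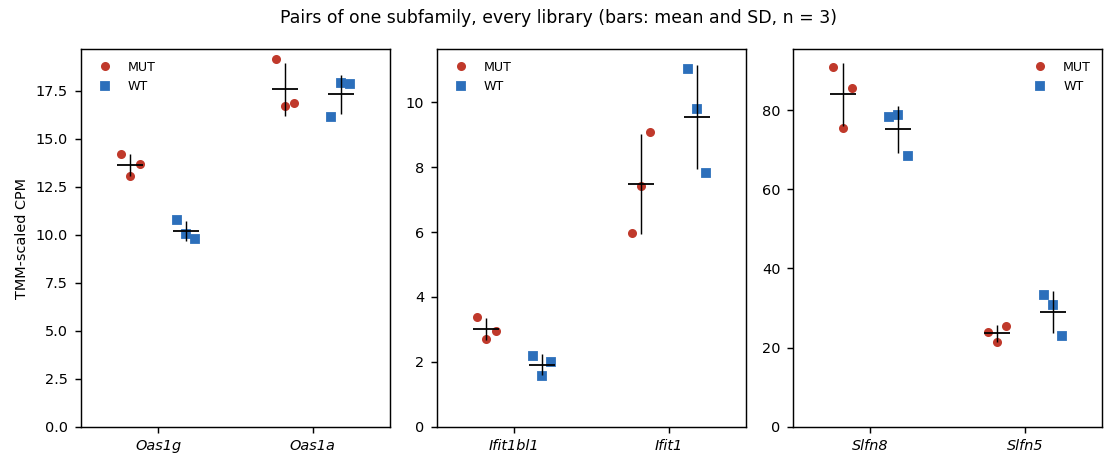
TMM-scaled CPM of 3 pairs of genes from the same subfamily in every library, MUT as red circles left of WT as blue squares, with the mean and SD of 3 libraries as black lines. Oas1g and Ifit1bl1 separate the genotypes, with MUT values of 13.04 to 14.2 CPM for Oas1g against 9.77 to 10.8 CPM in WT, while Oas1a, Ifit1, Slfn8 and Slfn5 overlap.

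The Parp members transfer ADP-ribose to proteins and had the narrowest range of fold changes of the 4 subfamilies. Parp14, a mono-ADP-ribosyltransferase with macrodomains, measured 98.7, 95.4 and 107 CPM in MUT, against 90.0, 96.2 and 82.5 CPM in WT. Its log2 fold change was 0.16 (SE 0.073; edgeR, unadjusted p = 0.0468, adjusted p = 0.463), with MUT libraries 1 and 3 above WT and MUT library 2 within the WT range. Parp9 measured 39.1, 40.5 and 41.8 CPM in MUT, against 43.3, 38.4 and 38.9 CPM in WT, with a log2 fold change of 0.0072 (SE 0.073) and overlapping genotypes. Dtx3l, the ubiquitin ligase that forms a complex with it, measured 114, 118 and 116 CPM in MUT, against 121, 114 and 109 CPM in WT (log2 fold change 0.017, SE 0.060). The 95% interval of the fold change was 0.898 to 1.12 for Parp9 and 0.923 to 1.11 for Dtx3l, both narrow. With library size alone the log2 fold changes were -0.028 for Parp9 and -0.018 for Dtx3l. Parp9 and Dtx3l lie head to head on chromosome 16 and share 7.71% and 8.09% of their 50-base words with other genes, chiefly each other. Parp12, which acts against viruses at the Golgi, measured 23.3, 23.3 and 26.7 CPM in MUT, against 25.1, 26.9 and 24.3 CPM in WT (log2 fold change -0.058, SE 0.092).

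Set side by side, no subfamily had all of its members on 1 side of 0. The median log2 fold change was -0.047 over the 5 Ifit genes, 0.019 over the 6 Oas genes, 0.17 over the 4 Slfn genes and 0.0072 over the 3 Parp genes. With library size alone the Oas median was -0.018 and the Parp median -0.028, and with limma-voom, also scaled by TMM, the Parp median was -0.0006. The Ifit median was 0.016 when genes needed at least 1 CPM in 3 libraries. The sign of these 3 medians thus depends on the settings. Leaving out 1 library at a time moved the Ifit median between -0.088 and 0.18 and the Slfn median between 0.039 and 0.23. Single log2 fold changes ran from -0.35 to 0.65 among the Ifit genes, from -0.11 to 0.42 among the Oas genes and from -0.30 to 0.34 among the Slfn genes, with a range of -0.058 to 0.16 among the Parp genes. No test of one subfamily against another was made.

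**Figure D4:**
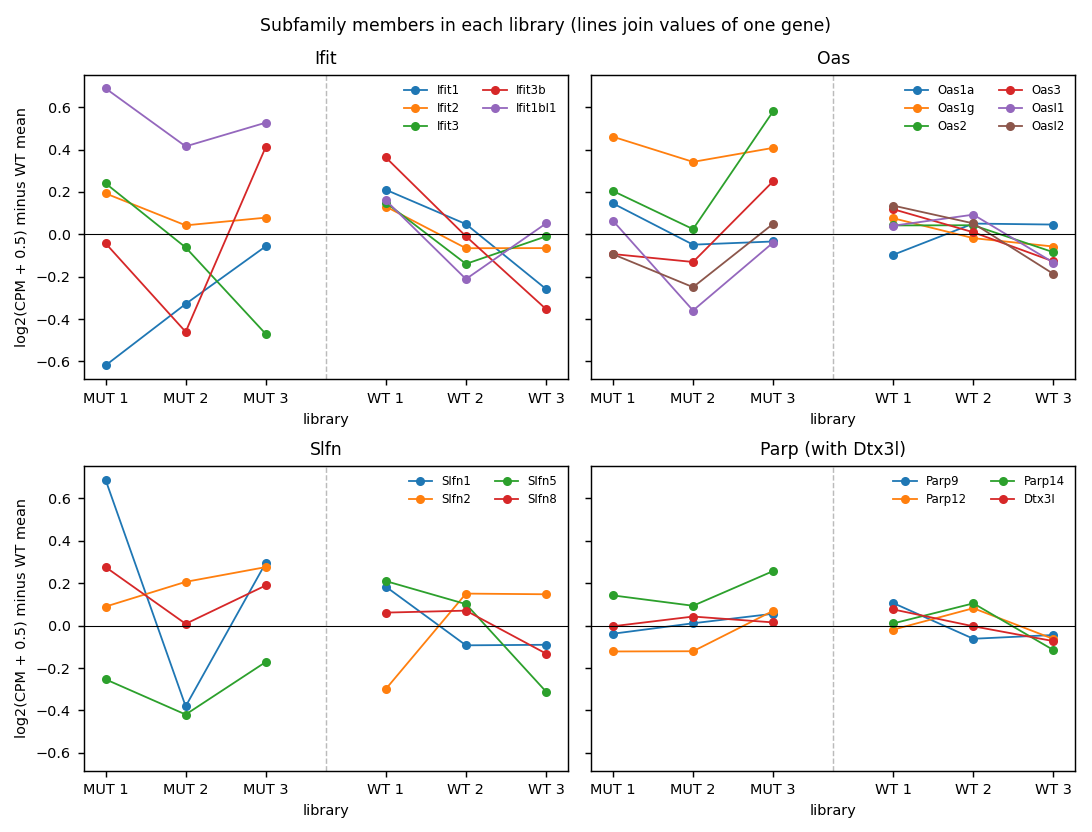
Each panel shows 1 subfamily (Ifit, Oas with Oasl, Slfn, and Parp with Dtx3l), with log2(CPM + 0.5) minus the WT mean of that gene on the vertical axis and the 3 MUT libraries left of the 3 WT libraries. A line joins the values of 1 gene and implies no order among libraries: Ifit1bl1 and Oas1g stay above 0 in the 3 MUT libraries, Ifit1 and Slfn5 below 0, and the Parp genes lie closest to 0.

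Isg15 is a ubiquitin-like protein joined to other proteins and also secreted, and Usp18, Herc6 and Trim25 encode enzymes of its cycle or ligases induced with it. Isg15 measured 5.42, 2.67 and 3.01 CPM in MUT, against 3.05, 2.95 and 3.37 CPM in WT (log2 fold change 0.25, SE 0.26; edgeR, unadjusted p = 0.350, adjusted p = 0.782). MUT library 1 stood above the other 5 libraries, which lay between 2.67 and 3.37 CPM, and without it the log2 fold change was -0.14. Its start region (chr4:156200769-156201068, minus strand) holds 3 overlapping cores, the most of any window among the members, the nearest 66 bases before the start.
Isg15: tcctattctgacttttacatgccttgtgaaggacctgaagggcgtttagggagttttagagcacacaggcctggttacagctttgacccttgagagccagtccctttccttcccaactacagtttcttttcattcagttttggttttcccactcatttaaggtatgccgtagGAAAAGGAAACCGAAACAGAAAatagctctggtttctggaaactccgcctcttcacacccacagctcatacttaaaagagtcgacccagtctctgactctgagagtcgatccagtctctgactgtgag

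Usp18, which removes Isg15 from proteins and dampens the interferon receptor, measured 11.5, 8.33 and 9.42 CPM in MUT, against 8.86, 11.7 and 9.07 CPM in WT (log2 fold change -0.014, SE 0.16). The highest Usp18 value was in WT library 2 and the lowest in MUT library 2. Trim25, a ubiquitin ligase that activates the RNA sensor RIG-I, measured 189, 151 and 185 CPM in MUT, against 154, 149 and 164 CPM in WT (log2 fold change 0.17, SE 0.085; edgeR, unadjusted p = 0.0737, adjusted p = 0.527). MUT libraries 1 and 3 were above all WT libraries for Trim25, and MUT library 2 was not. Herc6, the main ligase for Isg15 in the mouse, averaged 64.8 ± 7.91 CPM in MUT and 62.8 ± 4.81 CPM in WT (SD, n = 3 each; log2 fold change 0.044, SE 0.092).

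The Mx genes encode dynamin-like GTPases that trap viral nucleoproteins, and C57BL/6 mice are known to carry an Mx1 allele that makes no working protein. Mx1 measured 8.05, 5.14 and 6.22 CPM in MUT, against 8.02, 7.64 and 7.33 CPM in WT (log2 fold change -0.24, SE 0.17; edgeR, unadjusted p = 0.197, adjusted p = 0.674). MUT libraries 2 and 3 lay below WT, and MUT library 1 above it. Mx2 averaged 4.48 ± 0.544 CPM in MUT and 4.47 ± 0.652 CPM in WT (SD, n = 3 each), with a log2 fold change of 0.0025 (SE 0.18) that was below 0 with DESeq2, size factors of the RLE kind and library size alone.

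Among the small Ifi proteins, Ifi27l2a, a relative of Ifi27, measured 9.63, 5.35 and 5.15 CPM in MUT, against 4.49, 4.14 and 4.60 CPM in WT. The genotypes did not overlap, and the log2 fold change was 0.61 (SE 0.24; edgeR, unadjusted p = 0.0252, adjusted p = 0.405). MUT library 1 carried most of that difference, and without it the log2 fold change was 0.25. Ifi27 itself measured 69.4, 53.8 and 54.3 CPM in MUT, against 62.8, 60.2 and 56.6 CPM in WT (log2 fold change -0.016, SE 0.10), with MUT library 1 highest and MUT libraries 2 and 3 lowest. Ifi44 measured 34.3, 35.4 and 40.9 CPM in MUT, against 42.0, 44.2 and 34.3 CPM in WT (log2 fold change -0.13, SE 0.11) and Ifi35 averaged 16.5 ± 0.805 CPM in MUT and 17.9 ± 0.858 CPM in WT (SD, n = 3 each; log2 fold change -0.12, SE 0.10). The Ifi200 proteins bind DNA and include sensors of foreign DNA. Ifi203 measured 388, 324 and 377 CPM in MUT, against 361, 352 and 269.8 CPM in WT (log2 fold change 0.15, SE 0.11), with WT library 3 the lowest and MUT library 1 the highest. Ifi204 averaged 4.58 ± 1.63 CPM in MUT and 4.23 ± 0.661 CPM in WT (SD, n = 3 each; log2 fold change 0.12, SE 0.25), with MUT library 1 highest, and 20.02% of its 50-base words occur in other genes, so its level is uncertain.

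Pml and Sp100 build the PML nuclear bodies, which hold interferon-induced repressors of viral genomes. Pml was the 1 member whose 3 MUT values all lay below WT, with 81.1, 74.0 and 81.7 CPM in MUT, against 94.2, 83.4 and 91.7 CPM in WT. Its log2 fold change was -0.19 (SE 0.069; edgeR, unadjusted p = 0.0220, adjusted p = 0.392), and it stayed between -0.24 and -0.14 when each library was left out in turn. Sp100, in the same bodies, averaged 99.0 ± 2.15 CPM in MUT and 97.3 ± 8.73 CPM in WT (SD, n = 3 each), with a log2 fold change of 0.025 (SE 0.072) that was -0.012 with library size alone. Phf11b, a PHD-finger protein, measured 9.40, 7.08 and 8.07 CPM in MUT, against 6.15, 6.35 and 5.13 CPM in WT, higher in every MUT library (log2 fold change 0.48, SE 0.16; edgeR, unadjusted p = 0.0124, adjusted p = 0.326). Of the 50-base words of Phf11b, 47.0% occur in other genes, 26.0% in Phf11a. Its counts were whole numbers before rounding, and whether reads from the shared words are missing was not tested. Its neighbour Phf11d averaged 4.08 ± 0.489 CPM in MUT and 3.73 ± 0.232 CPM in WT (SD, n = 3 each), with a log2 fold change of 0.13 (SE 0.17). The summed level of Phf11b and Phf11d was 13.3, 11.7 and 11.7 CPM in MUT, against 9.90, 10.3 and 8.62 CPM in WT. That sum leaves out Phf11a, the gene that shares the most words with Phf11b.

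Of the 10 other effectors, Epsti1 and Bst2 had separated genotypes, both higher in MUT, and none of their 50-base words occurs in another gene. Epsti1 measured 30.8, 29.6 and 31.6 CPM in MUT, against 28.2, 26.6 and 24.6 CPM in WT (log2 fold change 0.21, SE 0.084; edgeR, unadjusted p = 0.0289, adjusted p = 0.417). Bst2, or tetherin, which holds budding virus at the cell surface, measured 27.2, 25.1 and 25.4 CPM in MUT, against 25.1, 23.1 and 21.2 CPM in WT (log2 fold change 0.16, SE 0.092; edgeR, unadjusted p = 0.105, adjusted p = 0.584). For Bst2 the lowest MUT value and the highest WT value met at 25.1 CPM, so the separation was narrow. Rsad2 (viperin), which makes a chain-terminating nucleotide, and Cmpk2, the nucleotide kinase encoded beside it on chromosome 12, both had log2 fold changes below 0. Rsad2 measured 15.3, 13.5 and 13.3 CPM in MUT, against 22.4, 15.3 and 15.2 CPM in WT (log2 fold change -0.33, SE 0.15; edgeR, unadjusted p = 0.0580, adjusted p = 0.494). Cmpk2 measured 16.7, 16.5 and 17.4 CPM in MUT, against 17.4, 17.1 and 23.2 CPM in WT (log2 fold change -0.19, SE 0.13). A different WT library carried each value: WT library 1 was highest for Rsad2, and without it the log2 fold change was -0.12, while WT library 3 was highest for Cmpk2, and without it the log2 fold change was -0.034. Trim30a, a Trim-family regulator of inflammatory signalling, measured 82.7, 93.2 and 94.6 CPM in MUT, against 95.3, 97.1 and 83.0 CPM in WT (log2 fold change -0.026, SE 0.079). Eif2ak2, the kinase PKR that stops translation on double-stranded RNA, averaged 92.9 ± 7.15 CPM in MUT and 90.3 ± 2.94 CPM in WT (SD, n = 3 each; log2 fold change 0.042, SE 0.069). The exonuclease gene Isg20, the chaperone gene Rtp4, the apoptosis regulator Xaf1 and the growth restraint factor Samd9l had log2 fold changes of -0.093, 0.049, -0.062 and -0.016, each with overlapping genotypes.

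Irf7, the transcription factor that amplifies the interferon response, measured 11.4, 9.80 and 9.31 CPM in MUT, against 10.7, 9.77 and 8.64 CPM in WT (log2 fold change 0.066, SE 0.14; edgeR, unadjusted p = 0.642, adjusted p = 0.913). The genotypes overlapped, and the 95% interval of its fold change was 0.848 to 1.29.

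The libraries of 1 genotype differed from each other in a way that ran through much of the list. MUT library 2 held the lowest of the 3 MUT values for 31 of the 46 genes (67.4%), against 29.5% of all genes tested. WT library 3 held the lowest of the 3 WT values for 29 of the 46 (63.0%), against 36.0% of all genes tested. The highest MUT value was in MUT library 1 for 24 genes and the highest WT value in WT library 1 for 25. The median over the 46 genes of log2(CPM + 0.5) minus the WT mean was 0.079, -0.067 and 0.048 in MUT libraries 1, 2 and 3 and 0.071, 0.011 and -0.088 in WT libraries 1, 2 and 3, while the same median over all genes lay within 0.0082 of 0 in every library. Their summed level was 2077, 1871 and 2099 CPM in MUT and 2055, 1983 and 1801 CPM in WT, which averages 2016 ± 126 CPM in MUT and 1946 ± 131 CPM in WT (SD, n = 3 each). The SD between libraries of a genotype was thus larger than the distance between the genotype means. WT library 3 also differed from the other WT libraries in single marker genes. The granule genes Mpo and Elane had 4688 and 535 CPM in WT library 3, against 2510 to 2624 CPM and 277 to 282 CPM in the other WT libraries. The antibody light chain gene Igkc had 1192 CPM in WT library 3 and 1951 to 1996 CPM in the other WT libraries. The stem and progenitor markers summed to 1641 CPM in WT library 3, against 2045 to 2133 CPM. MUT library 2 had the lowest Igkc of the MUT libraries (1723 against 1812 to 1966 CPM) and lay within their range for the summed neutrophil, stem and progenitor and macrophage markers. The part of these differences in the library pattern was not tested. With MUT library 1, the deepest, and WT library 3 left out together, edgeR called 0 members and 56 of all genes. The median log2 fold change of the members was then -0.059. An unadjusted p under 0.05 was found for 7 members, with no share of all genes at hand for that setting.

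**Figure D5:**
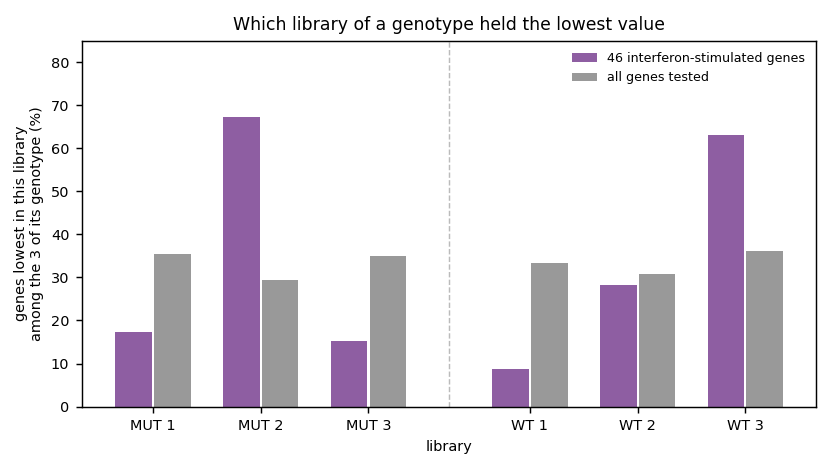
The percentage of genes whose lowest value among the 3 libraries of a genotype fell in each library, for the 46 interferon-stimulated genes (purple) and for all genes tested (grey). MUT library 2 reaches 67.4% and WT library 3 63.0% for the 46 genes, against 29.5% and 36.0% for all genes.

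Likeness between genes was measured as Pearson's r of log2 CPM over the 6 libraries, for the 1035 pairs of members, as a description with no test, since all genes share the same libraries and depth. The median r was 0.232 over all pairs, 0.083 within Ifit, 0.217 within Oas, 0.084 within Slfn and 0.176 within Parp. The 5 pairs most alike joined different subfamilies: Oasl1 with Xaf1 (r = 0.956), Oas3 with Herc6 (0.949), Ifit1bl1 with Oas1g (0.943), Oas1g with Epsti1 (0.938) and Slfn8 with Ifi203 (0.935). Ifit1bl1, Oas1g and Epsti1 are also among the genes whose genotypes separate, which by itself raises r across the 6 libraries.

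RefSeq start windows were at hand for 36 of the 46 members, and Mx1, Mx2, Parp9, Parp14, Ifi27, Ifi27l2a, Ifi204, Usp18, Rtp4 and Oas2 were not searched. The response element core was found on either strand in 16 of the 36 (44.4%), against 3.99% of 27025 genes with a window of the same length. Among the subfamilies it was found in 4 of 5 Ifit genes, 3 of 5 Oas genes, 2 of 4 Slfn genes and 0 of 1 Parp gene. The gamma-activated sequence TTCNNNGAA, whose matches can overlap a response element core, was found in 6 of the 36 (16.7%), against 9.55% of genes. The ETS-type sequence CCGGAAGT, searched on both strands, was found in 1 of the 36 (2.78%), that of Ifit2, against 4.31% of genes. These matches describe the letters of the windows and say nothing of binding.

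The genes upstream of the response were tested as lists chosen by function. Of 21 interferon genes in the table, 17 had no counts in any library, Ifnb1 among them. Ifnab, of the alpha family, had 1, 0 and 0 counts in MUT and 4, 1 and 0 in WT. Ifnk, a keratinocyte-type interferon, had 25, 16 and 12 counts in MUT and 24, 8 and 11 in WT, and was the 1 ligand that passed the filter. Ifnz had 12, 5 and 7 counts in MUT and 1, 1 and 1 in WT, too few for the fit. A count of 0 does not show that no cell made the RNA at a level below this depth.

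Of 17 receptor chains, kinases, transcription factors and their inhibitors, edgeR called 0 and limma-voom 0, with 1 (5.88%) at an unadjusted p under 0.05, against 10.6% of all genes, and DESeq2 called 1 (5.88%, against 1.59%). That gene was Irf1, a factor strongly induced by interferon gamma, with 47.5, 50.2 and 49.7 CPM in MUT, against 40.6, 41.2 and 36.5 CPM in WT (log2 fold change 0.32, SE 0.072; edgeR, unadjusted p = 0.00117, adjusted p = 0.154). All MUT values of Irf1 lay above all WT values. Over the 17 genes the genotypes did not overlap for 3 (17.6%), against 16.3% of all genes. The receptor genes Ifnar1 and Ifnar2 had log2 fold changes of 0.048 and 0.068, and the factor gene Irf9 of 0.13, each with overlapping genotypes. Of 16 sensors upstream of type I interferon, edgeR, DESeq2 and limma-voom each called 0 and 1 (6.25%, against 10.6% of all genes) had an unadjusted edgeR p under 0.05, the DNA sensor Aim2, with 55.8, 51.0 and 50.6 CPM in MUT, against 47.2, 46.3 and 40.7 CPM in WT (log2 fold change 0.23, SE 0.078).

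Relatives of the members that the list does not hold were tested in the same way. Of 43 such Ifit, Oas, Slfn, Parp, Ifi200 and related genes, 36 could be tested; edgeR called 0 and limma-voom 0, 4 (11.1%, against 10.6% of all genes) had an unadjusted edgeR p under 0.05, all higher in MUT, and DESeq2 called 2 (5.56%, against 1.59%). Ifi208, of the Ifi200 family, measured 4.65, 3.28 and 4.41 CPM in MUT, against 1.39, 2.15 and 2.03 CPM in WT (log2 fold change 1.15, SE 0.23; edgeR, unadjusted p = 0.000449, adjusted p = 0.0926). Slfn4, a myeloid schlafen gene, measured 15.5, 10.8 and 11.3 CPM in MUT, against 8.97, 7.29 and 8.64 CPM in WT (log2 fold change 0.59, SE 0.16; edgeR, unadjusted p = 0.00411, adjusted p = 0.226). These 2 were the ones called by DESeq2, and the genotypes did not overlap for either. Over the 36 relatives they did not overlap for 6 (16.7%), against 16.3% of all genes. Oas1c measured 10.5, 9.46 and 8.20 CPM in MUT, against 7.52, 6.94 and 5.15 CPM in WT (log2 fold change 0.52, SE 0.17) and Ifi206 17.6, 12.1 and 14.5 CPM in MUT, against 12.4, 11.04 and 8.68 CPM in WT (log2 fold change 0.47, SE 0.17). Their median log2 fold change was 0.061 over the 36, against 0.0019 over all genes.

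Of 55 further interferon-stimulated genes outside the 46, edgeR called 0 and limma-voom 0, 11 had an unadjusted edgeR p under 0.05 (9 higher and 2 lower in MUT), or 20% against 10.6% of all genes, and DESeq2 called 2, Gca and Ifi47 (3.64%, against 1.59%). Their median log2 fold change was 0.025. The 4 with the smallest p were Gca, a calcium-binding protein of granules, with 26.7, 32.0 and 26.8 CPM in MUT, against 35.8, 36.1 and 47.9 CPM in WT (log2 fold change -0.49, SE 0.12), and 3 genes above WT. These were the GTPase gene Ifi47 with 133, 124 and 109 CPM in MUT, against 98.0, 104 and 98.0 CPM in WT (log2 fold change 0.29, SE 0.076), the guanylate-binding protein gene Gbp3 with a log2 fold change of 0.30 (SE 0.090) and the immunoproteasome gene Psmb9 with 0.25 (SE 0.083). The genotypes did not overlap for any of the 4. Over the whole list they did not overlap for 8 of the 55 genes (14.5%), against 16.3% of all genes. Without WT library 3, edgeR called 1 gene of that list, Ifitm1, which measured 90.3, 83.7 and 96.3 CPM in MUT, against 121, 129 and 91.3 CPM in WT.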

How the data were processed

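Bulk RNA-seq of 6 LSK libraries, 3 MUT and 3 WT, was analysed from 1 deposited table. Its values are RSEM expected counts per gene, made by the authors, deposited without scaling and rounded here to whole numbers. The submitters' processing notes name Trim Galore 0.60, STAR 2.7 and RSEM 1.31, with build mm10. The annotation release is not given in the sources used here. Per the labels' protocols, total RNA was amplified by single-primer isothermal amplification. This does not select polyadenylated RNA and marks no strand, so genes that overlap on opposite strands share reads. Expected counts can also divide reads between similar genes. Likeness was gauged as the percentage of 50-base words of a gene's transcripts found in another gene's, which does not measure such a division. Counts of the close copies Oas1a and Oas1g, and Ifit3 and Ifit3b, were whole numbers before rounding, so no division shows there.

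Genes were filtered with filterByExpr, leaving 20646, scaled by TMM and tested two-sided with the quasi-likelihood method of edgeR 4.0.16 in R 4.3.3, with genotype as the single term. Benjamini-Hochberg adjustment ran over all genes tested, and 0.05 was the threshold. Intervals of 95% come from that fit. Another 92 spike-in rows, at 0, were left out. GENCODE vM21 gave positions and exon lengths for 55480 of 55573 genes. On 3 simulated draws of at least 20272 genes, MUT over WT, 35.3% of 1.5-fold, 63.7% of 2-fold and 90.9% of 4-fold changes were recovered, and false calls were 9.98% of calls, so a gene that missed the threshold may still differ.

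The members, marker lists and pathway lists were chosen with earlier results of these data known. Given with every library were members with an unadjusted p under 0.05, all Ifit, Oas, Slfn and Parp members, the 5 highest and 5 lowest fold changes among members outside these 4 subfamilies, the 5 highest levels per kilobase, Irf7, Isg15 and Usp18, with Bst2 also as a non-overlapping gene. Of each pathway list, the genes with the smallest p were named, and the receptor genes, Irf9, Ifnz and Ifitm1 were added after their values were seen. 1 gene of a pathway list that this rule takes is not reported here. The alternatives were DESeq2 1.42.0, limma-voom (limma 3.58.1), RLE size factors, scaling by library size alone, 2 further filters on low counts, counts left unrounded, robust estimation, the replicate number as a block, ribosomal and mitochondrial RNA left out, each library left out in turn, and MUT library 1 and WT library 3 left out together. No pair of replicates agreed within sampling noise (chi-square per gene 11.2 to 46.5).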

Additional observations from a re-analysis of the deposited data

How the results depend on the processing

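The count of members called stayed at 0 in all alternatives but DESeq2, which called 1. Over all genes, edgeR called 55, against 329 with DESeq2, 527 with no filter on low counts and 16 to 67 when each library was left out. For the pathway lists, DESeq2 called 2 relatives, 2 further interferon-stimulated genes and 1 receptor or transducer gene, and edgeR with no filter called 2, 3 and 1. The further genes gave 0 to 1 call when 1 library was left out and 1 with MUT library 1 and WT library 3 left out together. Etv6 had a log2 fold change of -0.30 and passed with no filter (edgeR, adjusted p = 0.0111). The count of members at an unadjusted p under 0.05 ran from 4 to 10 over libraries left out, with no share of all genes at hand for those settings. Non-overlapping members ran from 9 to 15 (19.6% to 32.6%, against 23.7% to 29.7% of all genes). They reached 20 without MUT library 1 and WT library 3 (43.5%, against 40.4% of all genes). In that setting the Ifit median was -0.26 and the Slfn median -0.021. With 1 library left out, the Ifit median ran from -0.088 to 0.18, Oas from -0.031 to 0.073, Slfn from 0.039 to 0.23, Parp from -0.016 to 0.064 and all 46 genes from -0.022 to 0.079.

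With the replicate number as a block, edgeR called 32 genes and 0 members. An unadjusted p under 0.05 was found for 6 members, with no share of all genes at hand. Same-numbered MUT and WT libraries did not deviate together (r of -0.035, -0.066 and -0.154 over 20646 genes). These values cannot decide whether the numbers pair the samples, since deviations from a mean of 3 libraries constrain one another. No library correlated best with the library of its own number.

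Signs of log2 fold changes near 0 turned as follows, and the cause was not tested. With library size alone they were -0.018 for Dtx3l, -0.037 for Mx2, -0.014 for Oas1a, -0.021 for Oas3, -0.028 for Parp9 and -0.012 for Sp100. Mx2 gave -0.0013 with DESeq2 and -0.0009 with RLE size factors. With limma-voom Oas3 gave -0.0081, Parp9 -0.0006 and Usp18 0.026. Without MUT library 1 and WT library 3 together they were -0.0077 for Dtx3l, -0.025 for Ifi203, -0.084 for Ifi204, -0.10 for Irf7, -0.081 for Isg15, -0.16 for Mx2, -0.020 for Oas1a, -0.20 for Rtp4, -0.079 for Slfn1 and -0.062 for Sp100. Of the 46 genes, 25 kept their sign with each library left out. The others ranged from -0.019 to 0.057 for Dtx3l, -0.0085 to 0.10 for Eif2ak2, -0.058 to 0.11 for Herc6, -0.21 to 0.30 for Ifi204, -0.15 to 0.049 for Ifi27, -0.30 to 0.11 for Ifit3, -0.48 to 0.33 for Ifit3b, -0.025 to 0.15 for Irf7, -0.14 to 0.44 for Isg15, -0.11 to 0.10 for Mx2 and -0.043 to 0.061 for Oas1a. They ranged from -0.12 to 0.084 for Oas3, -0.21 to 0.013 for Oasl1, -0.024 to 0.064 for Parp9, -0.085 to 0.17 for Rtp4, -0.077 to 0.062 for Samd9l, -0.020 to 0.63 for Slfn1, -0.044 to 0.083 for Sp100, -0.093 to 0.033 for Trim30a, -0.15 to 0.12 for Usp18 and -0.12 to 0.038 for Xaf1. Depth limits Ifit3b most, with 18 rounded counts in MUT library 2.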
